A study of Homo sapiens with 18 samples.

Results

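The genes described here lie in the first 20 Mb of the short arm of human chromosome 1, the end of the arm that carries band 1p36. Members are the genes that start below base 20000000 of chromosome 1 in the deposited gene tables and reach 1 TPM in at least 3 of 18 libraries, without 10 genes left out by name. TPM is the abundance of a gene's transcripts as a share of all transcripts in a library, corrected for length. This gave 254 members, out of 18650 genes that reach the same minimum over the whole genome. The region was selected on the TPM difference between SKNAS Hmx1 and SKNAS control libraries, which was upward here, so the SKNAS values below are a description and carry no test. Of the 254 members, 163 are annotated as protein-coding, 80 have another biotype (among them 35 antisense or long intergenic RNAs and 29 pseudogenes) and 11 have none.

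Loss of 1p36 is a recurrent lesion of neuroblastoma, a tumour of the developing sympathetic nervous system, and several genes of the region have been proposed as its tumour suppressors. The same stretch holds receptors of the tumour necrosis factor (TNF) family, apoptosis genes, the kinase gene MTOR, subunits and enzymes of mitochondria, and ubiquitin ligases. It also holds sequence copies of mitochondrial genes near the tip of the arm, whose reads can be confused with those of mitochondrial transcripts.

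The 18 libraries are bulk, polyadenylated RNA of xenograft tumours, grown in mice from the human neuroblastoma lines SKNAS (SK-N-AS), LAN-1 and KELLY. Each line had an arm named Hmx1, after the homeobox gene, with 3 libraries, and a control arm with 3 libraries. Whether the Hmx1 arm carries more or less of the gene, and of which species, is not stated. The labels give no strain and no treatment for any group, and name MYCN amplification for 2 of the KELLY control libraries only. They do not tie libraries to animals, so p-values measure the spread between libraries, which may be technical. HMX1 itself stood at 1.24, 0.193 and 0.411 TPM in SKNAS Hmx1 libraries and was listed at 0 in each of the 3 control libraries of SKNAS. It stood at 11.5, 16.5 and 11.6 TPM in LAN-1 Hmx1 libraries, against 11.9, 11.7 and 11.1 TPM in LAN-1 control libraries. In KELLY it stood at 6.40, 5.41 and 4.68 TPM in Hmx1 libraries, against 7.72, 3.92 and 5.45 TPM in control libraries, so the arms overlapped in LAN-1 and in KELLY. Between 14420 and 16441 genes reached 1 TPM in a library; the read depth is unknown. Markers of sympathetic neuroblastoma were present in every group, at 1 TPM for at least 6 of 7 genes. In such bulk samples, fewer cells of a type and less RNA per cell cannot be told apart.

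Most genes of the region stood higher in SKNAS Hmx1 tumours than in SKNAS control tumours. The median log2 change over the 254 members was 0.49 (quartiles 0.21 and 0.73), where the change is the difference of log2(TPM + 1), a scale that understates the change of low genes. It was above 0 for 224 members, or 88.2%, while over all 18650 genes the median change was 0.00 and 49.2% lay above 0. In 135 members all 3 Hmx1 libraries lay above all 3 control libraries (14.8% of all genes did), and in 5 members all 3 lay below (16% of all genes). Since this contrast chose the members, nothing is read from these counts. Among 120 members with a mean of at least 10 TPM and a TPM above 0 in the control arm, the median ratio of Hmx1 to control means was 1.44 in SKNAS (quartiles 1.23 and 1.70). In LAN-1 and KELLY, over these and 1 member listed at 0 in SKNAS control, it was 0.939 in LAN-1 and 0.960 in KELLY. DNA copy number was not analysed here.

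The shift was present in each SKNAS library. The level of the region was taken as the median over members of log2(TPM + 1), centred for each gene on its mean over the 18 libraries, minus the same median over all genes. It was 0.27, 0.21 and 0.23 in the 3 SKNAS Hmx1 libraries, against -0.35, -0.23 and -0.18 in the 3 SKNAS control libraries. The Hmx1 libraries were the higher group and the groups did not overlap, at 0.23 ± 0.03 in Hmx1 and -0.25 ± 0.08 in control tumours (SD, n = 3 each). The LAN-1 group means lay between these, at -0.15 ± 0.07 in Hmx1 and -0.10 ± 0.04 in control tumours. KELLY libraries stood at 0.14 ± 0.04 in Hmx1 and 0.16 ± 0.15 in control tumours, with 1 KELLY control library at 0.34 and the others at 0.06 and 0.10. A share of TPM was taken without members whose name starts with MT, which drops the copies of mitochondrial genes and also MTOR. The remaining members took 0.906%, 0.914% and 0.906% of the TPM of the SKNAS Hmx1 libraries, against 0.632%, 0.637% and 0.698% of that of the SKNAS control libraries.

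**Figure D1:**
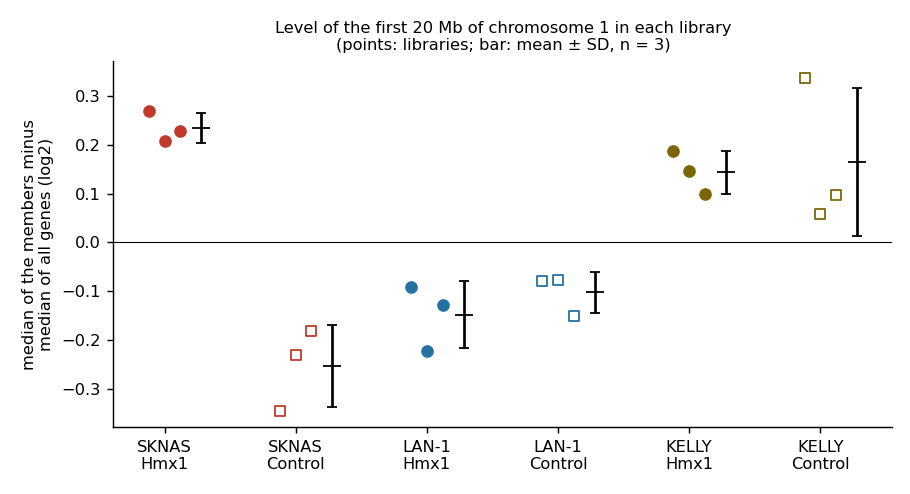
Level of the first 20 Mb of chromosome 1 in each library (points; vertical axis in log2 units, the median of the 254 members minus the median of all genes), with the mean and SD of each group of 3 libraries. The SKNAS Hmx1 libraries lie between 0.21 and 0.27 and the SKNAS control libraries between -0.35 and -0.18, while the arms of LAN-1 and of KELLY overlap.

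Along the arm, the SKNAS difference was not uniform. In windows of 2 Mb, counted on all genes that reach the TPM minimum, the median log2 change was 0.40 from 0 to 2 Mb (81 genes) and 0.68 from 2 to 4 Mb (26 genes). It was 0.74 from 6 to 8 Mb (27 genes) and 0.74 from 8 to 10 Mb (16 genes), and every gene of these last windows stood above 0. It was 0.54 from 10 to 12 Mb (32 genes), 0.05 from 14 to 16 Mb (11 genes), 0.39 from 16 to 18 Mb (41 genes) and 0.31 from 18 to 20 Mb (21 genes). The difference did not end at the position limit: the median was 0.40 from 20 to 22 Mb (22 genes) and 0.29 from 22 to 24 Mb (20 genes), then 0.04 from 24 to 26 Mb (26 genes) and -0.02 from 26 to 28 Mb (42 genes). Over the rest of chromosome 1, windows of 20 Mb had medians between -0.11 and 0.12. The windows at 4 to 6, 8 to 10, 12 to 14 and 14 to 16 Mb hold fewer than 20 genes each, with 1 gene at 4 to 6 Mb.

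**Figure D2:**
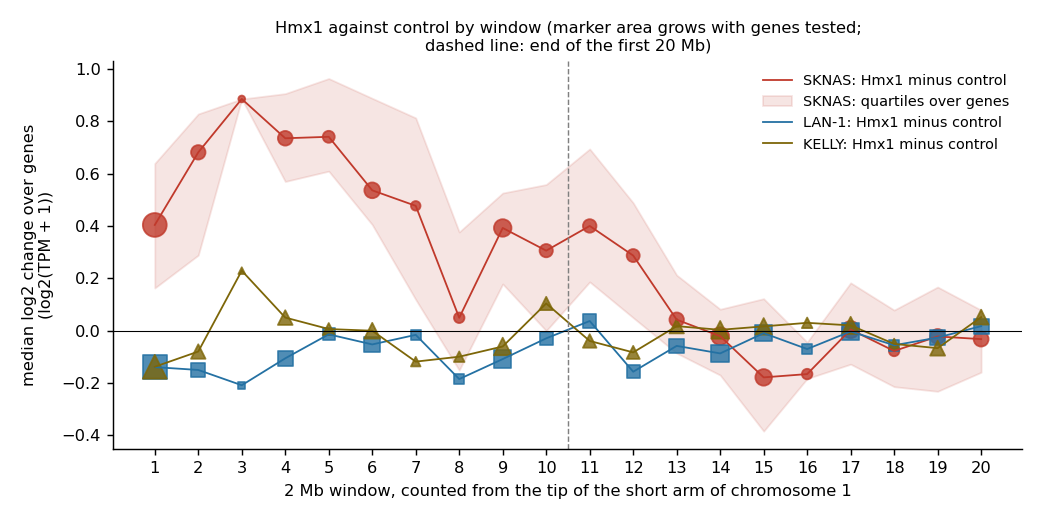
Median log2 change of Hmx1 against control (log2(TPM + 1)) in 2 Mb windows over the first 40 Mb of chromosome 1, for SKNAS (circles, with the quartiles over genes shaded), LAN-1 (squares) and KELLY (triangles); marker area grows with the number of genes. The SKNAS medians are highest between 2 and 10 Mb and between -0.18 and 0.04 beyond 24 Mb, and those of LAN-1 lie between -0.21 and 0.04 and those of KELLY between -0.14 and 0.23.

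Among 153 windows of 20 Mb over the genome with at least 30 genes, the first 20 Mb of chromosome 1 ranked 1 by its median in SKNAS, at 0.50 over 264 genes (the 10 left-out genes included). The region was chosen on the SKNAS contrast, so nothing is read from this rank. The next were 120 to 140 Mb of chromosome 8 at 0.49 (58 genes) and 100 to 120 Mb of chromosome 13 at 0.46 (63 genes), so other stretches had medians of this size. The same window had a median of -0.08 in LAN-1 and ranked 151 in KELLY (-0.04). At the position limit, the last members inside it were MICOS10 with a log2 change of 0.41, ENSG00000226396 with 0.49 and NBL1 with -0.88; the first genes outside it were TMCO4 with 0.17, OTUD3 with 0.80 and UBXN10 with 0.05. The 10 genes left out by name had a median of 0.59.

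Genes listed as host and lineage markers also differed between the SKNAS arms. The values are those of human genes, so whether reads of the host markers came from mouse cells or from the tumour cells was not tested. The summed TPM of the 6 host fibroblast markers (all 6 at 1 TPM in both arms) was 789 to 886 in Hmx1 libraries and 1115 to 1310.5 in control libraries. The list did not move as one: COL1A1, COL3A1 and LUM were lower in every Hmx1 library than in any control library, DCN (93.9 to 112.4 TPM in Hmx1, 50.9 to 90.8 TPM in control) and PDGFRB (34.4 to 45.1 TPM in Hmx1, 20.2 to 33.2 TPM in control) were higher, and COL1A2 overlapped. The summed TPM of the 5 leukocyte markers was 189 to 286 in Hmx1 and 77.1 to 105 in control libraries, nearly all of it PTPRC, with AIF1 listed at 0 in all control libraries. CD14 went the other way, at 0.258 to 0.732 TPM in Hmx1 and 1.10 to 1.65 TPM in control libraries. CSF1R was higher at low values (0.170 to 0.471 TPM in Hmx1, 0 to 0.116 TPM in control), and CD68 overlapped. The 5 endothelial markers summed to 5.92 to 8.58 TPM in Hmx1 and 3.07 to 4.35 TPM in control libraries, with PECAM1 listed at 0 in both arms. The 5 mesenchymal neuroblastoma markers summed to 432 to 478 TPM in Hmx1 and 626 to 694 TPM in control libraries, and the 7 sympathetic ones to 769.7 to 813 TPM in Hmx1 and 874 to 1013 TPM in control libraries. The 5 skeletal muscle markers summed to 2.32 to 4.22 TPM in Hmx1 and 6.19 to 9.06 TPM in control libraries, most of it TNNI2 (1.70 to 2.57 TPM in Hmx1, 4.97 to 7.27 TPM in control), while ACTA1 and CKM overlapped. The part of these differences in the shift of the region was not tested.

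The members with the highest SKNAS changes were NPPA, RNF207, PER3, TNFRSF9 and DISP3. NPPA encodes atrial natriuretic peptide and stood at 35.0, 21.3 and 29.5 TPM in SKNAS Hmx1 libraries, against 5.65, 6.41 and 5.40 TPM in SKNAS control libraries (log2 change 2.09, SE 0.20). In LAN-1 and KELLY it was listed at 0 in every library except 1 LAN-1 Hmx1 library at 0.661 TPM. RNF207 encodes a RING finger protein and stood at 11.1, 11.2 and 8.56 TPM in SKNAS Hmx1 libraries, against 1.35, 2.38 and 3.13 TPM in SKNAS control libraries (log2 change 1.81, SE 0.27). Both genes were thus higher in each SKNAS Hmx1 library than in any SKNAS control library. RNF207 did not separate the arms elsewhere, at 5.37 ± 1.56 TPM in LAN-1 Hmx1 and 5.74 ± 0.223 TPM in LAN-1 control, and 5.35 ± 1.90 TPM in KELLY Hmx1 and 7.75 ± 2.65 TPM in KELLY control (SD, n = 3 each). NPPA and RNF207 each overlap a gene on the other strand, and since the use of strand in counting is not given, reads of such pairs may not have been told apart; 79 members overlap a gene in this way.

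PER3 (ENSG00000049246, GRCh37 chromosome 1, 7844380 to 7905237, plus strand), a period gene of the circadian clock, stood at 8.67, 10.52 and 9.89 TPM in SKNAS Hmx1 libraries, against 3.83, 2.12 and 3.05 TPM in SKNAS control libraries (log2 change 1.44, SE 0.25). The arms did not overlap in SKNAS. It was also high in LAN-1, at 8.89 ± 3.61 TPM in Hmx1 and 11.4 ± 2.57 TPM in control, and low in KELLY, at 2.74 ± 0.689 TPM in Hmx1 and 2.46 ± 0.537 TPM in control (SD, n = 3 each). The promoter of PER3 in RefSeq is shown because PER3 is among the highest of the region and its start is rich in CpG. It is given 5′ to 3′ from 250 bases before to 50 bases after the start, GRCh38.p14, plus strand, chr1:7784041-7784340, with each CpG in capitals:
PER3 promoter: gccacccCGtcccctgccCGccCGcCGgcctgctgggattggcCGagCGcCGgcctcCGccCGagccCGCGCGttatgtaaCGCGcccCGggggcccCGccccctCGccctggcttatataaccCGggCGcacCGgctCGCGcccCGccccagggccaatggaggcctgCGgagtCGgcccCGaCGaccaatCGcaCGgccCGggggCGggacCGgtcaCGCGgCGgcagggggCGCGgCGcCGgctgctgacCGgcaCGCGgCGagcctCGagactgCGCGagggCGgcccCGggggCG
It holds 49 CpG. Over the 198 RefSeq promoter sequences of members the median was 30 CpG in 300 bases, against 21 over all 22199 RefSeq promoter sequences used.

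TNFRSF9 encodes the costimulatory receptor 4-1BB and stood at 2.43, 1.25 and 1.61 TPM in SKNAS Hmx1 libraries, against 0.123, 0 and 0.0693 TPM in SKNAS control libraries. DISP3, a transmembrane protein of the patched and dispatched family, stood at 9.13, 6.46 and 9.40 TPM in SKNAS Hmx1 libraries, against 2.29, 2.18 and 3.52 TPM in SKNAS control libraries. In both genes the SKNAS arms did not overlap. TNFRSF9 reached the filter minimum of 1 TPM in each SKNAS Hmx1 library and in no SKNAS control library, so nothing is read from its separation. The next members by size were ANKRD65-AS1 (log2 change 1.21), RNF207-AS1 (1.20), PIK3CD-AS2 (1.16), FAAP20 (1.16), a subunit of the Fanconi anaemia core complex, and the taste receptor gene TAS1R1 (1.15). Like NPPA and RNF207, the genes PER3, ANKRD65-AS1, RNF207-AS1, PIK3CD-AS2 and FAAP20 overlap a gene on the other strand. For RNF207-AS1 that gene is RNF207, so their changes may not be separate.

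A few members went the other way in SKNAS. NBL1, a secreted antagonist of bone morphogenetic proteins that was first described as a candidate suppressor of neuroblastoma, stood at 19.5, 15.6 and 21.5 TPM in SKNAS Hmx1 libraries, against 31.1, 38.8 and 36.2 TPM in SKNAS control libraries (log2 change -0.88, SE 0.25). PLOD1, a lysyl hydroxylase that modifies collagen, stood at 81.5 ± 1.75 TPM in SKNAS Hmx1 and 108.8 ± 12.5 TPM in SKNAS control libraries (SD, n = 3 each), where the lowest control library was at 94.6 TPM (-0.41, SE 0.16). MFAP2, a glycoprotein of extracellular microfibrils, stood at 69.4, 66.3 and 73.7 TPM in SKNAS Hmx1 libraries, against 97.3, 82.4 and 94.9 TPM in SKNAS control libraries (-0.38, SE 0.21). With SAMD11 (-0.61) and TNFRSF1B (-0.48), these are the 5 members whose Hmx1 libraries all lay below the control libraries. Of the host fibroblast markers given above, COL1A1, COL3A1 and LUM were lower in SKNAS Hmx1, as PLOD1 and MFAP2 were, and DCN and PDGFRB were higher; their part in these genes was not tested. The other members among the lowest 10 had arms that overlapped: MTATP8P1 (-0.67), RN7SL657P (-0.61), TMEM51 (-0.60), SZRD1 (-0.55) and PRDM2 (-0.40). When 1 library was left out, PRDM2 ranged from -0.93 to -0.00901, SZRD1 from -1.09 to -0.20, TMEM51 from -0.83 to -0.32, and MTATP8P1 and RN7SL657P turned sign.

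**Figure D3:**
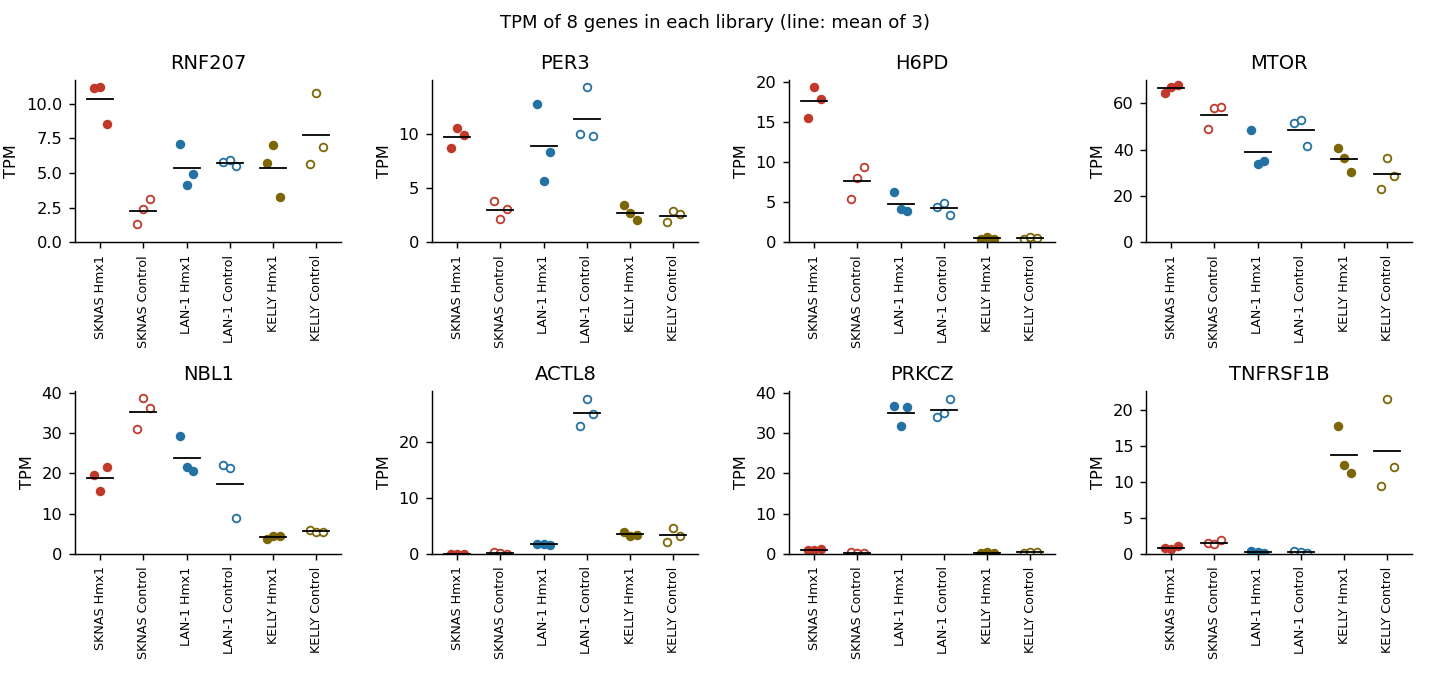
TPM of 8 members in each of the 18 libraries (points; filled for Hmx1, open for control; line, mean of 3), with a vertical axis of its own for each gene. RNF207, PER3, H6PD and MTOR lie higher and NBL1 and TNFRSF1B lower in SKNAS Hmx1 than in SKNAS control libraries, ACTL8 differs between the LAN-1 arms, and PRKCZ and TNFRSF1B differ between the lines.

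By role, every list with members had a SKNAS median above 0. The lists are parts of the members, which this contrast chose and of which 88.2% lay above 0, so nothing particular to a role is read from their SKNAS values. Of 14 proposed 1p36 suppressor candidates in the region, 11 were members, with a median log2 change of 0.62 in SKNAS and 10 of 11 above 0. CAMTA1, a calmodulin-binding transcription activator, stood at 117.5, 110.4 and 111.8 TPM in SKNAS Hmx1 libraries, against 64.7, 67.4 and 46.9 TPM in SKNAS control libraries. KIF1B, a kinesin motor, stood at 29.5, 28.3 and 30.8 TPM in SKNAS Hmx1 libraries, against 16.1, 13.2 and 18.1 TPM in SKNAS control libraries. In both of these genes the arms did not overlap, and the same held for the ubiquitin chain elongation factor UBE4B (log2 change 1.10) and the co-repressor RERE (1.05). MIIP (0.10) and the p53 relative TP73 (0.06, below 0.13 TPM in all 6 SKNAS libraries) lay near 0. CHD5, a chromatin remodeller often named as a 1p36 suppressor, was no member: it was at most 1.82 TPM and reached 1 TPM in 2 libraries.

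The cell death and TNF receptor list had 11 members of 12 genes, a SKNAS median of 0.52 and 9 of 11 above 0. PARK7, a redox-sensitive chaperone also called DJ-1, stood at 397, 432 and 477 TPM in SKNAS Hmx1 libraries, against 255, 276 and 241 TPM in SKNAS control libraries, with no overlap. DFFB, the caspase-activated nuclease, changed by 0.85 on the log2 scale and its inhibitor DFFA by 0.52. CASP9, the initiator caspase of the mitochondrial pathway, differed by 0.38, and its arms overlapped. The receptors did not move as one: the log2 changes of TNFRSF4 (1.09) and TNFRSF25 (0.62) were above 0 and that of TNFRSF1B was -0.48, each with arms apart, while TNFRSF14 (-0.22) and TNFRSF8 (0.12) had arms that overlapped.

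In transcription and chromatin, 12 of 17 genes were members, with a SKNAS median of 0.59 and 10 of 12 above 0. SKI, a co-repressor of TGF-beta signalling, stood at 30.6 ± 1.69 TPM in SKNAS Hmx1 and 18.7 ± 3.54 TPM in SKNAS control (SD, n = 3 each), and the telomere-binding zinc finger gene ZBTB48 at 24.1 ± 2.26 TPM in SKNAS Hmx1 and 13.2 ± 1.76 TPM in SKNAS control. The signalling list had 14 members of 15 genes, a median of 0.57 and 13 of 14 above 0, NBL1 being the exception. GNB1, a G protein beta subunit, stood at 648, 692 and 751 TPM in SKNAS Hmx1 libraries, against 452, 415 and 479 TPM in SKNAS control libraries. MTOR, the growth-control kinase, stood at 64.2, 67.0 and 67.8 TPM in SKNAS Hmx1 libraries, against 48.7, 57.8 and 58.5 TPM in SKNAS control libraries, a log2 change of 0.27. Both were higher in each SKNAS Hmx1 library, GNB1 by more than MTOR. PIK3CD, a PI3-kinase catalytic subunit, had a log2 change of 1.08 at low TPM.

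All 19 genes of mitochondria and metabolism were members and all stood above 0 in SKNAS, with a median of 0.63. Among them were H6PD (1.14), which makes NADPH in the endoplasmic reticulum, the acyl-CoA thioesterase ACOT7 (0.88), the NAD-synthesis enzyme NMNAT1 (0.87) and PGD (0.83) of the pentose phosphate pathway. H6PD stood at 15.6, 19.3 and 17.9 TPM in SKNAS Hmx1 libraries, against 5.39, 8.03 and 9.36 TPM in SKNAS control libraries. MRPL20, a subunit of the mitochondrial ribosome, stood at 371, 363 and 379 TPM in SKNAS Hmx1 libraries, against 270.2, 274 and 270.3 TPM in SKNAS control libraries. The arms were apart in both genes, and the MRPL20 difference was small in size (log2 change 0.45) with little spread.

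Of the other lists, all 11 ubiquitin and protein turnover genes stood above 0 in SKNAS (median 0.57), with RNF207 described above highest, the F-box gene FBXO44 at 1.13 and the ligase gene UBR4 at 0.56. All 10 RNA processing and ribosome assembly genes did so (median 0.54), with NOC2L, a nucleolar protein, at 215 ± 12.6 TPM in Hmx1 and 126 ± 18.3 TPM in control tumours (SD, n = 3 each). All 6 cell cycle and DNA repair genes did so (median 0.54), with RCC2 at 308, 315 and 333 TPM in SKNAS Hmx1 libraries, against 223, 257 and 239 TPM in SKNAS control libraries. Of 12 cytoskeleton and vesicle genes 11 stood above 0 (median 0.52), and of 11 neuronal genes 7 were members, 6 of them above 0 (median 0.63). CLSTN1, a calsyntenin of neuronal transport, led the vesicle genes at 77.9, 77.2 and 88.5 TPM in SKNAS Hmx1 libraries, against 40.1, 37.3 and 49.2 TPM in SKNAS control libraries. None of the 4 peptidylarginine deiminase genes looked up in the region was a member.

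**Figure D4:**
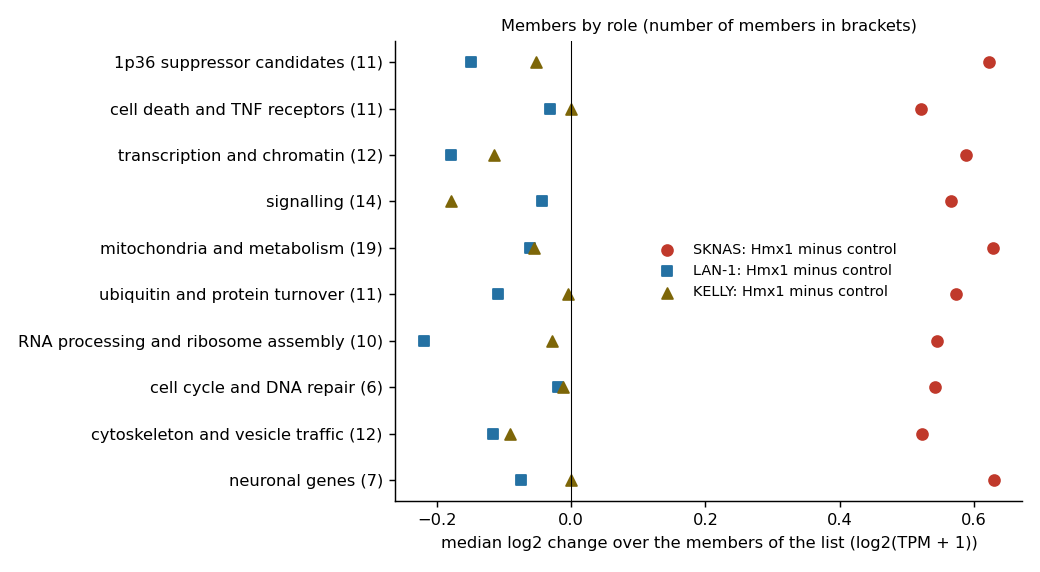
Median log2 change of Hmx1 against control (log2(TPM + 1)) over the members of 10 role lists (number of members in brackets; some genes are in more than 1 list), for SKNAS (circles), LAN-1 (squares) and KELLY (triangles). The SKNAS medians lie between 0.52 and 0.63, and those of LAN-1 and KELLY between -0.22 and 0.

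In LAN-1 tumours, which played no part in the choice of members, 1 gene of the region was called between Hmx1 and control. Limma called 0 members higher (0.172% of all genes) and 1 lower (0.279% of all genes) at an adjusted p under 0.05; at an unadjusted p under 0.05 it counted 4 higher (2.48% of all genes) and 12 lower (4.71% of all genes). Without LAN-1 Hmx1 replicate 1, 2 members were called lower, ENSG00000240731 being added (log2 change -2.24). The median log2 change of the members was -0.08 (-0.17 to -0.04 when 1 library was left out), beside -0.05 over all genes, and 30.7% of members lay above 0, beside 38.1% of all genes. In 10 members (3.94%) the LAN-1 Hmx1 libraries all lay above the control libraries, beside 6.34% of all genes, and in 20 (7.87%) all lay below, beside 9.47% of all genes. These shares are near or under those of all genes.

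The gene called was ACTL8 (ENSG00000117148, GRCh37 chromosome 1, 18081808 to 18153558, plus strand), an actin-like gene known as a cancer-testis antigen for its expression in testis and in some tumours. It stood at 1.73, 1.80 and 1.49 TPM in LAN-1 Hmx1 libraries, against 22.8, 27.6 and 24.9 TPM in LAN-1 control libraries. The arms were far apart, with a ratio of means of 0.067. ACTL8 fell by 3.29 on the log2 scale (SE 0.19, adjusted p = 1.78e-08, limma; 3.2e-10 to 0.0042 over 28 alternative settings). In KELLY it stood at 3.94, 3.15 and 3.34 TPM in Hmx1 libraries, against 2.09, 4.52 and 3.20 TPM in control libraries, with overlap (log2 change 0.10, adjusted p = 1). The change between arms in LAN-1 minus that in KELLY was -3.39 (SE 0.27, adjusted p = 2.59e-06, limma). In SKNAS, ACTL8 was listed at 0 in all 3 Hmx1 libraries and at 0.287, 0.0739 and 0 TPM in the control libraries.

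The RefSeq promoter of ACTL8 is shown because this is the gene called between Hmx1 and control in LAN-1, and because it is CpG-poor next to the PER3 promoter above. It runs from 250 bases before to 50 bases after the start, GRCh38.p14, plus strand, chr1:17755083-17755382, 5′ to 3′, with each CpG in capitals:
ACTL8 promoter: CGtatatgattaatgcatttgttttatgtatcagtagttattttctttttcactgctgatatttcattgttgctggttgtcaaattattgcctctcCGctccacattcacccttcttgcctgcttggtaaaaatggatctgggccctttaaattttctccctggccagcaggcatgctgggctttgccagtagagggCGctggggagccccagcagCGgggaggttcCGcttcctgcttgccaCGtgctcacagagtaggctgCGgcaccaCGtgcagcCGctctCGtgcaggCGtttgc
It holds 11 CpG, against the member median of 30. The letters CACGTG, an E-box, occur in it at bases 242 and 270 of the 300. CACGTG was found in 11.1% of the member promoters and in 8.34% of all promoters. CAAGTG, the core bound by proteins of the HMX family, searched on both strands, was in 6.06% of the member promoters and in 10.4% of all promoters; it is not in the ACTL8 window, which says nothing about binding. A match of letters is a description and not a site.

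In KELLY tumours no member was called between Hmx1 and control. Limma called 0 members higher (0.0483% of all genes) and 0 lower (0.0429% of all genes), and at an unadjusted p under 0.05 it counted 11 higher (4.50% of all genes) and 9 lower (2.34% of all genes). CAPZB, an actin-capping subunit, was called higher without KELLY control replicate 2 (log2 change 1.08), and ENSG00000178715 lower without KELLY Hmx1 replicate 3 (-0.96). The median log2 change of the members was -0.04, beside 0.02 over all genes; it was -0.10 to 0.04 when 1 library was left out, so its sign was not stable. All 3 KELLY Hmx1 libraries lay above the control libraries in 9 members (3.54%, beside 4.46% of all genes) and below them in 15 members (5.91%, beside 2.21% of all genes). The difference of the effects, LAN-1 minus KELLY, was called for 0 members as higher (0.102% of all genes) and for 1 as lower (0.107% of all genes), which is ACTL8; at an unadjusted p under 0.05 there were 7 higher (1.97% of all genes) and 11 lower (4.91% of all genes). Without KELLY control replicate 2 it was called for 2 members as lower, ACTL8 and CAPZB (-1.19).

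CAMTA1, GNB1 and PARK7, whose arms were apart in SKNAS, did not separate the arms of these lines. CAMTA1 stood at 118.6 ± 6.04 TPM in LAN-1 Hmx1 and 109.6 ± 23.7 TPM in LAN-1 control, and at 138 ± 25.03 TPM in KELLY Hmx1 and 98.5 ± 20.6 TPM in KELLY control (adjusted p = 1 in LAN-1 and 0.646 in KELLY, limma). GNB1 stood at 391 ± 44.6 TPM in LAN-1 Hmx1 and 378 ± 15.4 TPM in LAN-1 control, and at 385 ± 37.6 TPM in KELLY Hmx1 and 347 ± 103 TPM in KELLY control. PARK7 stood at 328 ± 15.1 TPM in LAN-1 Hmx1 and 325 ± 12.2 TPM in LAN-1 control, and at 311 ± 14.2 TPM in KELLY Hmx1 and 271 ± 62.2 TPM in KELLY control (SD, n = 3 in each group). In all of these the arms overlapped. Of the 10 role lists with members, the LAN-1 medians lay between -0.22 (RNA processing, 0 of 10 above 0) and -0.02 (cell cycle), and the KELLY medians between -0.18 (signalling) and 0. Within the lists, ACTL8 was the only member called in LAN-1 and none was called in KELLY.

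Between the control tumours of LAN-1 and KELLY, many members differed in level. Limma called 64 members higher in LAN-1 (38.2% of all genes) and 51 lower (13.6% of all genes), or 25.2% and 20.1% of the 254. The median log2 change of the members was 0.05, while the median of all genes was 0.34, a difference of -0.29 for the members against all genes. The lines also differed in mitochondrial share, at 5.72% to 6.54% of TPM in LAN-1 control and 12.9% to 33.8% in KELLY control libraries, and the split of calls moved with the scaling. With median-ratio size factors, under which the median of all genes is 0, 43 members were called higher (24.8% of all genes) and 95 lower (24.8% of all genes). With quantile normalization 49 were higher (26.7% of all genes) and 88 lower (23.0%). With FPKM 51 were higher (29.3% of all genes) and 73 lower (19.3%), and without the mitochondrial genes 45 were higher (26.3% of all genes) and 73 lower (19.6%). Under these 4 scalings the difference of the member median from that of all genes was between -0.26 and -0.19. All 3 LAN-1 libraries lay above all 3 KELLY libraries in 70 members (40.6% of all genes did) and below them in 60 members (15.2% of all genes).

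Higher in LAN-1 control were several genes that KELLY hardly expressed. PRKCZ (GRCh37 chromosome 1, 1981909 to 2116834), an atypical protein kinase C of cell polarity and neuronal function, stood at 33.9, 35.1 and 38.6 TPM in LAN-1 control libraries, against 0.288, 0.510 and 0.509 TPM in KELLY control libraries. It had the largest difference of the members, 4.69 on the log2 scale (SE 0.16, adjusted p = 5.11e-13, limma). The Hmx1 arms had similar levels, at 35.1 ± 2.73 TPM in LAN-1 Hmx1 and 0.190 ± 0.169 TPM in KELLY Hmx1 (SD, n = 3 each), and SKNAS stood at 0.981 ± 0.252 TPM in Hmx1 and 0.196 ± 0.135 TPM in control. TP73, the p53 relative, stood at 10.3, 5.31 and 5.11 TPM in LAN-1 control libraries, against 0.255, 0.431 and 0.189 TPM in KELLY control libraries (log2 change 2.56, SE 0.24, adjusted p = 1.34e-07, limma). ERRFI1, a feedback inhibitor of EGF receptor signalling, stood at 12.2, 15.03 and 13.6 TPM in LAN-1 control libraries, against 1.13, 2.13 and 2.03 TPM in KELLY control libraries (2.42, SE 0.19). None of these groups overlapped. In TP73 no SKNAS or KELLY control library reached 1 TPM, so its LAN-1 libraries weighed on its passing the filter on low values. PRKCZ and TP73 overlap genes on the other strand, as do PIK3CD-AS2 and PER3, named next. The others among the 10 largest were PIK3CD-AS2 (2.94), ACTL8 (2.65), FHAD1 (2.51), the synapse-organizing proteoglycan gene AGRN (2.06), the NOTCH target HES4 (1.96), PER3 (1.84) and SLC45A1, a sugar transporter gene at 2.54, 3.09 and 2.78 TPM in LAN-1 control and listed at 0 in all KELLY libraries.

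The members lowest in LAN-1 control against KELLY control were MFAP2, TNFRSF1B and TNFRSF8. MFAP2 stood at 0.212, 0 and 0.222 TPM in LAN-1 control libraries, against 20.1, 36.6 and 17.6 TPM in KELLY control libraries (log2 change -4.43, SE 0.21, adjusted p = 2.27e-11, limma). TNFRSF1B, the second TNF receptor, stood at 0.305, 0.215 and 0.150 TPM in LAN-1 control libraries, against 9.36, 21.5 and 12.1 TPM in KELLY control libraries (-3.57, SE 0.24, adjusted p = 1.66e-09, limma). TNFRSF8, which encodes CD30, was listed at 0 in all LAN-1 control libraries and stood at 1.63, 8.38 and 3.61 TPM in KELLY control libraries. IGSF21, a synaptic adhesion gene, was listed at 0 in all LAN-1 and SKNAS libraries and stood at 1.75, 2.12 and 3.36 TPM in KELLY control libraries. It passed the filter on low values through KELLY libraries alone, so it had to be higher in KELLY and nothing is read from its call. Host fibroblast markers summed to 15.8 to 25.5 TPM in LAN-1 control and 87.2 to 166 TPM in KELLY control libraries, most of it COL1A1 in KELLY, while DCN (0.534 to 0.792 TPM in LAN-1 control, 0 to 0.0902 TPM in KELLY control) and LUM (1.54 to 2.20 TPM in LAN-1 control, 0 to 0.184 TPM in KELLY control) were higher in LAN-1; their part in MFAP2 was not tested. The 6 remaining members of the lowest 10 were copies of mitochondrial genes (MTATP6P1, MTCO2P12, MTATP8P1, MTND2P28, MTCO3P12 and MTCO1P12, from -2.26 to -1.69), whose values are uncertain because near-identical transcripts come from the mitochondrion itself.

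**Figure D5:**
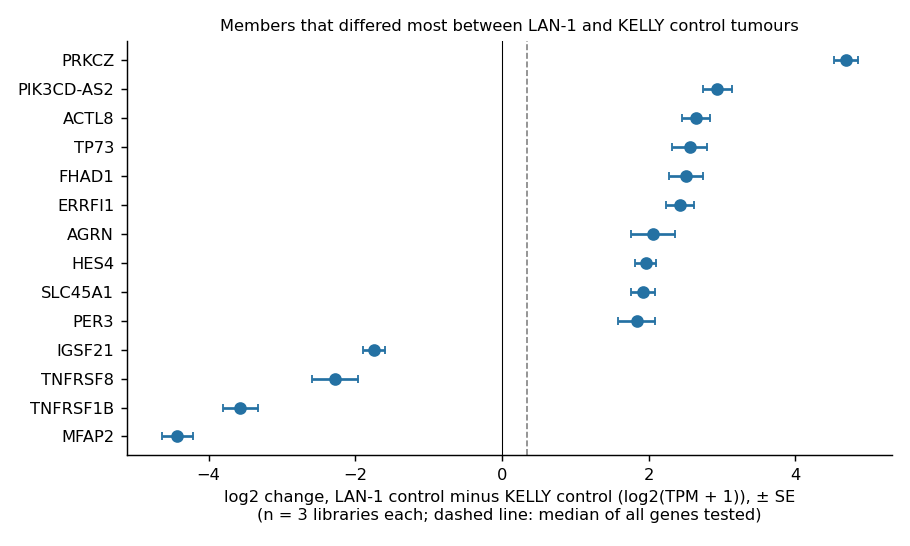
Log2 difference of LAN-1 control minus KELLY control (log2(TPM + 1); points, bars ± SE, n = 3 libraries each) for the called members with the largest differences, without the copies of mitochondrial genes; the dashed line is the median of all genes, 0.34. PRKCZ lies highest at 4.69 and MFAP2 lowest at -4.43; SLC45A1 was listed at 0 in KELLY control and TNFRSF8 and IGSF21 in LAN-1 control, so their differences are no fold changes.

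By role, the signalling list had 7 of 14 members called higher and 1 lower in LAN-1 control than in KELLY control, and 5 higher and 7 lower with median-ratio scaling. Over all genes these shares were 38.2% higher and 13.6% lower, and 24.8% each with that scaling; the lists are small, and nothing particular to a list is read from its counts. Among them CTNNBIP1, an inhibitor of beta-catenin, stood at 18.8, 35.2 and 29.5 TPM in LAN-1 control libraries, against 7.60, 9.98 and 5.30 TPM in KELLY control libraries (log2 change 1.73). Mitochondria and metabolism had 8 of 19 higher and 4 lower (4 and 6 with that scaling), with H6PD at 4.26 ± 0.725 TPM in LAN-1 control and 0.549 ± 0.128 TPM in KELLY control (SD, n = 3 each). The suppressor candidates had 5 of 11 higher and 2 lower (2 and 3 with that scaling), and the cell death list 4 and 5 of 11 (2 and 6 with that scaling). RNA processing had 1 of 10 higher and 5 lower (0 and 9 with that scaling), the lower ones being SSU72, INTS11, NOC2L, MRTO4 and CCNL2. Transcription and chromatin had 5 of 12 higher and 1 lower, the cytoskeleton list 4 of 12 and 0, ubiquitin 3 of 11 and 1, neuronal genes 2 of 7 and 2, and cell cycle 1 of 6 and 1. With median-ratio scaling these became 4 and 4, 4 and 2, 1 and 4, 2 and 4, and 0 and 4.

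The filter on low values bears on who is a member. Of 631 identifiers in the region, 264 reached the minimum and 184 were listed at 0 in every library. All 18 libraries reached 1 TPM in 144 members. Among the members, 5 reached it in exactly 3 libraries and 14 genes that reached it in exactly 2 stayed out. For 3 members those libraries were the SKNAS Hmx1 libraries alone, so they had to be higher there; without them the SKNAS median is 0.49, as before. ESPN, an actin-bundling gene, reached 1 TPM in LAN-1 control libraries alone, so it had to be higher there; it was called higher in LAN-1 control than in KELLY control (log2 change 0.82) and was not called between the LAN-1 arms. IGSF21, listed at 0 in all LAN-1 and SKNAS libraries, passed through KELLY libraries alone and had to be higher there. Further role genes of the region that stayed out are AJAP1, PRDM16, HES2, HES3, HES5, PDPN, TNFRSF18, DRAXIN and MMEL1, each reaching 1 TPM in at most 1 library.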

How the data were processed

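RNA of 18 xenograft tumour libraries was read as 125-base pairs in 2 lanes from a stranded poly(A) kit, per the labels' protocols. Per the submitters' processing notes, bcl2fastq, STAR and FastQC were used; the notes list the builds GRCh38.p12 and GRCh37 without saying what each was for. No source used here gives the tool behind the gene tables, the use of strand or a step against mouse reads. The deposited tables give TPM, a share of transcripts corrected for length, per the file headers. The deposited FPKM column, per the file headers, served as an alternative, and the deposited coverage column was not used. TPM keeps no depth, so read numbers are unknown and no counting interval is given. Coordinates are those of the files, taken as GRCh37 because the last gene end on chromosome 1 is 249231242, beyond the 248937099 of RefSeq GRCh38.p14.

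Groups came from the sample titles, and replicate numbers, given in accession order, pair nothing. Of 63677 identifiers, 52181 matched a symbol and 52526 a GENCODE v29 biotype. Repeated lines, 9 to 15 per library, were summed. Limma 3.58.1 in R 4.3.3, with a mean-variance trend, was fitted to log2(TPM + 1) of the 18650 genes with at least 1 TPM in at least 3 libraries, with 6 group means (residual degrees of freedom 12, prior 4.95). Benjamini-Hochberg adjustment ran over all 18650 genes, with calls at an adjusted p under 0.05; 4 comparisons were tested, and SKNAS was described only. The fit was tested on simulated data.

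Named genes are up to 10 called members per direction by size, the 10 highest and 10 lowest in SKNAS, the members of 11 role lists, and the 3 genes on each side of the position limit; genes singled out for low levels or overlap were named after their values were seen. The members and lists were chosen with earlier results of these data known. Alternatives were pseudocounts of 0.1 and 5, other filters on low values, FPKM, median-ratio and quantile scaling, omission of mitochondrial genes, no trend, a fit of only the groups compared, the 10 left-out genes added back, and each library left out in turn.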

Additional observations from a re-analysis of the deposited data

Results flagged for a closer look

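The ACTL8 change between the arms labelled Hmx1 and control differed between lines by a test of the difference itself. LAN-1 minus KELLY was -3.39 on the log2 scale (SE 0.27, adjusted p = 2.59e-06 by limma). ACTL8 was lower in 3 of 3 LAN-1 Hmx1 libraries than in any LAN-1 control library, while the KELLY arms overlapped.

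For 12 members the Hmx1 libraries all lay above the control libraries in SKNAS and all below them in another line, 6 in LAN-1 and 6 in KELLY. Taken singly, 53.1% of the members lay above in SKNAS (14.8% of all genes). In LAN-1 7.87% lay below (9.47% of all genes), and in KELLY 5.91% (2.21% of all genes). The share of all genes that did both was not counted, so nothing is read from the number of such members. The differences of the 12 members were not tested, since the SKNAS contrast chose the members, and none of the LAN-1 or KELLY differences was called. In LAN-1 they were RNF207-AS1, SLC45A1, SCNN1D (log2 change 0.95 in SKNAS and -0.60 in LAN-1), AKR7A3 (0.66 in SKNAS and -0.41 in LAN-1), ENSG00000239906 (0.65 in SKNAS and -0.71 in LAN-1) and CCNL2 (0.54 in SKNAS and -0.42 in LAN-1). In KELLY they were ENSG00000272420 (0.83 in SKNAS and -0.42 in KELLY), DNAJC11 (0.82 in SKNAS and -0.35 in KELLY), MST1L (0.74 in SKNAS and -0.54 in KELLY), ENSG00000269896 (0.67 in SKNAS and -0.38 in KELLY), TMEM52 (0.63 in SKNAS and -0.47 in KELLY) and ENSG00000215014 (0.51 in SKNAS and -0.48 in KELLY).

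SLC45A1 stood at 1.78, 1.71 and 2.34 TPM in SKNAS Hmx1 libraries, against 1.11, 0.409 and 1.29 TPM in SKNAS control libraries (log2 change 0.63), and at 1.95, 1.59 and 1.72 TPM in LAN-1 Hmx1 libraries, against 2.54, 3.09 and 2.78 TPM in LAN-1 control libraries (log2 change -0.47, adjusted p = 0.406, limma). RNF207-AS1 stood at 4.47, 2.91 and 3.39 TPM in SKNAS Hmx1 libraries, against 1.15, 1.12 and 0.704 TPM in SKNAS control libraries (log2 change 1.20), and at 2.33, 1.71 and 1.84 TPM in LAN-1 Hmx1 libraries, against 2.40, 2.51 and 2.65 TPM in LAN-1 control libraries (log2 change -0.25, adjusted p = 0.936, limma). RNF207-AS1 overlaps RNF207 on the other strand.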

How the results depend on the processing

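The SKNAS median of the members was 0.61 with a pseudocount of 0.1 and 0.30 with a pseudocount of 5, and 0.43 to 0.56 when 1 library was left out. Of the members named for SKNAS, MTATP8P1 ranged from -1.28 to 0.0286 and RN7SL657P from -1.20 to 0.33 when 1 library was left out; the sign turned without SKNAS control replicate 1 for MTATP8P1 and without SKNAS Hmx1 replicate 3 for RN7SL657P. Of the 20 members named for SKNAS, 10 moved by more than the spread between replicates under another pseudocount, FPKM or quantile scaling, among them NPPA, RNF207, PER3, TNFRSF9 and DISP3, with the same sign. In LAN-1, 1 to 2 members were called lower when 1 library was left out; without LAN-1 Hmx1 replicate 1, ENSG00000240731 joined ACTL8. In KELLY, leaving out a library gave 0 to 1 higher and 0 to 1 lower: CAPZB was higher without KELLY control replicate 2 (adjusted p = 0.0122) and ENSG00000178715 lower without KELLY Hmx1 replicate 3, and with a pseudocount of 0.1 MST1L was lower, for a count of 1. Without KELLY control replicate 2, CAPZB also joined ACTL8 in the LAN-1 minus KELLY difference, for a range of 1 to 2. Between LAN-1 and KELLY control, 55 to 77 members were called higher and 40 to 51 lower when 1 library was left out, and 95 lower with median-ratio and 88 with quantile scaling. All 20 members named there kept direction and call in 28 alternatives, ACTL8 included. With no filter on low values the members lay 0.04 above all genes in that contrast, since the median of all genes then fell to 0.01. No paired analysis was possible because the labels carry no replicate numbers. A library left out leaves 2 in its group. The causes of these changes were not tested. TPM keeps no depth, so differences of members near 1 TPM, such as TNFRSF9 and TNFRSF4, cannot be set against counting error.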
